A study of Mus musculus with 116 samples.

Results

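Gas5 and 5 members of the Snhg family (Snhg1, Snhg3, Snhg6, Snhg8 and Snhg12) are small nucleolar RNA (snoRNA) host genes, described here in 116 mouse RNA libraries beside the long noncoding RNA Malat1. They were taken by name, and all 6 were found among the 40202 gene symbols of the deposited count files. The libraries came from C10, a mouse line labelled as alveolar type II epithelial cells, and from SVEC, a mouse line labelled as endothelial cells. Both lines grew under standard culture and received no treatment, and the lysates went through nanoSPLITS, in which a nanodroplet holding the content of a cell is divided so that RNA and protein can be read from separate portions. An input series of C10 had 8 libraries made from 1 cell each, 6 made from 3 cells and 6 made from 10 cells. A further set had 48 C10 libraries and 48 SVEC libraries of single cells. Nothing in the labels says which libraries share a culture, a day or a sequencing run, so the p-values measure the spread between libraries, part of which may be technical.

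A snoRNA host gene is transcribed as a long precursor whose introns carry snoRNAs, the guides that direct chemical modification of ribosomal and spliceosomal RNA. The introns are trimmed to mature snoRNAs, while the spliced exons of these hosts make a noncoding RNA that is engaged by ribosomes and is often degraded by nonsense-mediated decay, the pathway that removes transcripts with early stop codons. Many hosts begin with a 5′ terminal oligopyrimidine tract, a C followed by a run of C and T, which they share with the genes of ribosomal proteins and which couples translation to growth signals. Gas5 takes its name from growth arrest, since its transcript gathers in cells that have stopped growing. Malat1 is an abundant RNA that stays in the nucleus, next to the speckles that hold splicing factors, and serves as a noncoding transcript of a different location and fate.

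The sequences around the annotated starts are shown because the oligopyrimidine tract lies exactly there. They are from the RefSeq promoter table for GRCm38.p6 and run 5′ to 3′ on the transcribed strand, from 40 bases before the start. Each is 70 bases long. RefSeq lists separate starts for Gas5, of which both are given, and Snhg6 had no entry. Capitals mark a tract (C and then at least 5 further C or T, within 20 bases of the start) and the hexamers TATAAA or TATATA on either strand.
Gas5, start 1 (chr1:161034561-161034630, + strand): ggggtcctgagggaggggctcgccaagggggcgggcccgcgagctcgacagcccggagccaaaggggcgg
Gas5, start 2 (chr1:161035126-161035195, + strand): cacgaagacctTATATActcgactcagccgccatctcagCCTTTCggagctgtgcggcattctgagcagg
Snhg8 (chr3:123508307-123508376, - strand): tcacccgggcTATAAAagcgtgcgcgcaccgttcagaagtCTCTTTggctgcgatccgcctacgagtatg
Snhg12 (chr4:132308638-132308707, + strand): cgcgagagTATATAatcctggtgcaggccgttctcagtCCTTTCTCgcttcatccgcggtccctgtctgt
Snhg3 (chr4:132353657-132353726, - strand): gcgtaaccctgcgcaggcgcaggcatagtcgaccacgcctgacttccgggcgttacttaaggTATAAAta
Snhg1 (chr19:8723447-8723516, + strand): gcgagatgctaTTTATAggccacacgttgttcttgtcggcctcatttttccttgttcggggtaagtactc
Malat1 (chr19:5802643-5802712, - strand): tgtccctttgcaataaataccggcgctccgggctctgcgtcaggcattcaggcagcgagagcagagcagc

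A tract as defined was present at start 2 of Gas5 (CCTTTC), at Snhg8 (CTCTTT) and at Snhg12 (CCTTTCTC), and in each of them it began within 2 bases of the annotated start. None was found by this rule at Snhg1, Snhg3, start 1 of Gas5 or Malat1. The rule is a loose one, since 29.4% of the 32851 promoters of the table held such a tract. In start 2 of Gas5 and in Snhg8 and Snhg12 a TATAAA or TATATA hexamer lay 29, 30 and 32 bases before the start, and in Snhg1 the reverse complement of TATAAA lay 29 bases before it. In Snhg3 the hexamer came 22 bases after the annotated start. Either hexamer, on either strand, occurred in the same 70-base window of 4.99% of all promoters. The E-box letters CACGTG were searched on both strands of the full 300-base promoters and were in none of the 7 shown, against 7.15% of all promoters. These matches describe letters only, and no binding or start-site data were measured in this series.

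In GENCODE M21 on GRCm38 (the build the authors used is not given in the sources used here), Gas5 (ENSMUSG00000053332.13) lies at chr1:161034422-161038539 on the plus strand and encloses 9 annotated snoRNAs. Snhg1 (ENSMUSG00000108414.1) lies at chr19:8723475-8726443 on the plus strand and encloses 8. Snhg3 (ENSMUSG00000085241.7) lies at chr4:132348014-132353686 on the minus strand with 2, Snora73a and Snora73b. Snhg12 (ENSMUSG00000086290.9) lies at chr4:132308623-132311024 on the plus strand with 4, Snhg6 (ENSMUSG00000098234.7) at chr1:9941959-9944118 on the minus strand with 1, Snord87, and Snhg8 (ENSMUSG00000104960.1) at chr3:123507552-123508404 on the minus strand with 1, Snora24. The snoRNAs themselves were not seen in the counts. From a separate list of 26 snoRNA symbols attributed to these hosts, written without the annotation, 10 had a row in the files, and each of those was at 0 counts in all 116 libraries. Among all 138 symbols beginning with Snord or Snora, 3 had any count, with 813 counts in total. The values below are the counts assigned to the host symbols. In the annotation all 4 snoRNAs of Snhg12 lie within its spliced exons. Spliced exons also cover 159 of the 205 bases of Snora73a in Snhg3. In Snhg1 they cover 60 of the 72 bases of Gm25855 and 59 of the 126 bases of Snord22. Whether reads over snoRNAs or introns entered the host counts was not tested.

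Parts of some members cannot be separated from neighbouring genes. Exons of Snhg3 share 135 bases with Rcc1 on the same strand and 705 bases with Gm17300 on the opposite strand, and exons of Snhg6 share 127 bases with Mcmdc2 on the opposite strand. Whether strand was used in counting is not given in the sources used here. Mcmdc2 was detected in 2 of 46 C10 and 1 of 48 SVEC single-cell libraries. Rcc1, a chromatin-bound exchange factor for the GTPase Ran, was counted in 17 of 46 C10 single-cell libraries (17.3 ± 30.9 CPM, SD) and in 6 of 48 SVEC libraries (12.5 ± 40.1 CPM). CPM is a gene's read count scaled to 1000000 counts assigned to genes in that library.

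Depth differed between the groups. Total counts ran from 430798 to 15385625 in the 1-cell libraries, from 6889508 to 14018116 with 3 cells and from 8313314 to 14778988 with 10 cells. In C10 single cells 2 libraries with under 1000 counts were left out, and the other 46 held 83188 to 5911755 counts, against 5122 to 2831907 in the 48 SVEC libraries. A floor of 3 counts stood at 1.59 CPM in the median C10 single-cell library and at 6.90 CPM in the median SVEC library. Reads carried no molecular identifiers, so floors cover counting error only. The labelled cell types were checked against 16 alveolar epithelial and 18 endothelial markers. Nkx2-1, a lung transcription factor, and Sftpa1, Sftpb, Sftpc and Sftpd, which encode surfactant proteins, were at 0 in every C10 single-cell library, and Kdr, Tie1, Cldn5 and Vwf were at 0 in every SVEC library, so these defining markers were absent from the single-cell libraries, and the lines are called by name. Nkx2-1, Sftpb and Sftpd had counts in at least 1 C10 library of 3 cells. Most markers were too sparse to test. Of the 3 alveolar markers tested between the single cells, Cdh1, which encodes the epithelial adhesion protein E-cadherin, was higher in C10 (1.01 ± 2.45 against 0.0300 ± 0.208 CPM, SD; edgeR adjusted p = 5.10e-07). Of the 4 endothelial markers tested, the receptor gene Flt1 was higher in SVEC (11.4 ± 31.1 against 0.592 ± 2.86 CPM; adjusted p = 7.43e-05) and Tek was higher in C10 (0.720 ± 3.14 against 0.0937 ± 0.378 CPM; adjusted p = 0.00143), and limma called neither. The means of Cdh1 and Tek lay below the 3-count floor of the median library in both lines, which limits both calls. Cdh1 also passed the filter for testing (detection in at least 25% of a group's libraries) only through C10, where it was higher. Its p-value is therefore no check of the label. The 1-cell library of replicate 1 stood apart with 538 genes detected, where the other C10 input libraries had at least 5998.

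Snhg3, the host of Snora73a and Snora73b, had the highest median of the 6 in C10 single cells. Its lowest, median and highest values over 46 C10 single-cell libraries were 0, 251 and 1032 CPM (mean 332 ± 263, SD), and over 48 SVEC libraries 0, 76.8 and 993 CPM (129 ± 199). The ranges overlapped, but 42 of 46 C10 libraries lay above the SVEC median. Snhg3 was counted in 45 of 46 C10 and in 28 of 48 SVEC libraries.

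Gas5, the host of 9 snoRNAs, had the lowest coefficient of variation (SD over mean) of the 6 in both lines. It was present in all 46 C10 single-cell libraries, at 22.8, 136 and 374 CPM (lowest, median, highest; mean 149 ± 89.2, SD), and in 42 of 48 SVEC libraries, at 0, 102 and 1074 CPM (147 ± 176). The means of the lines differed by less than 3 CPM. That closeness rested on SVEC replicate 8, the highest library, where Gas5 had 20 of 18621 counts. Without it the SVEC mean was 127 CPM. The coefficient of variation was 0.599 in C10 and 1.20 in SVEC, or 0.883 in SVEC without replicate 8.

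The other members were sparser. Snhg1, host of a run of box C/D snoRNAs, had a median of 33.2 CPM (range 0 to 224; 45.5 ± 50.8, SD) in C10 and 21.9 CPM (0 to 405; 67.2 ± 95.5) in SVEC single cells. Snhg6, host of Snord87, had a median of 24.5 CPM (0 to 216; 35.6 ± 49.0) in C10 and of 0 (0 to 148; 23.9 ± 39.2) in SVEC. For Snhg8, host of Snora24, the C10 median was 17.7 CPM (0 to 83.3; 21.8 ± 20.2), and the SVEC median was 0 (0 to 586; 32.1 ± 89.0). The SVEC maximum of Snhg8, 586 CPM, was 3 counts in the shallowest library of 5122 counts. Snhg12, host of 4 snoRNAs, was at 0 in the median library of both lines, with a highest value of 138 CPM in C10 (17.1 ± 28.8) and 120 CPM in SVEC (9.12 ± 24.9). In all 4 of these genes the groups overlapped over most of their range.

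Malat1 spanned a far wider range. Its lowest, median and highest values were 5.81, 677 and 71160 CPM over the 46 C10 single-cell libraries (3008 ± 10638, SD) and 0, 1944 and 74203 CPM over the 48 SVEC libraries (12511 ± 18903). Its mean in C10 rested on few libraries, since the mean was above the upper quartile of 1356 CPM and was 1494 CPM without replicate 1, the highest library.

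**Figure D1:**
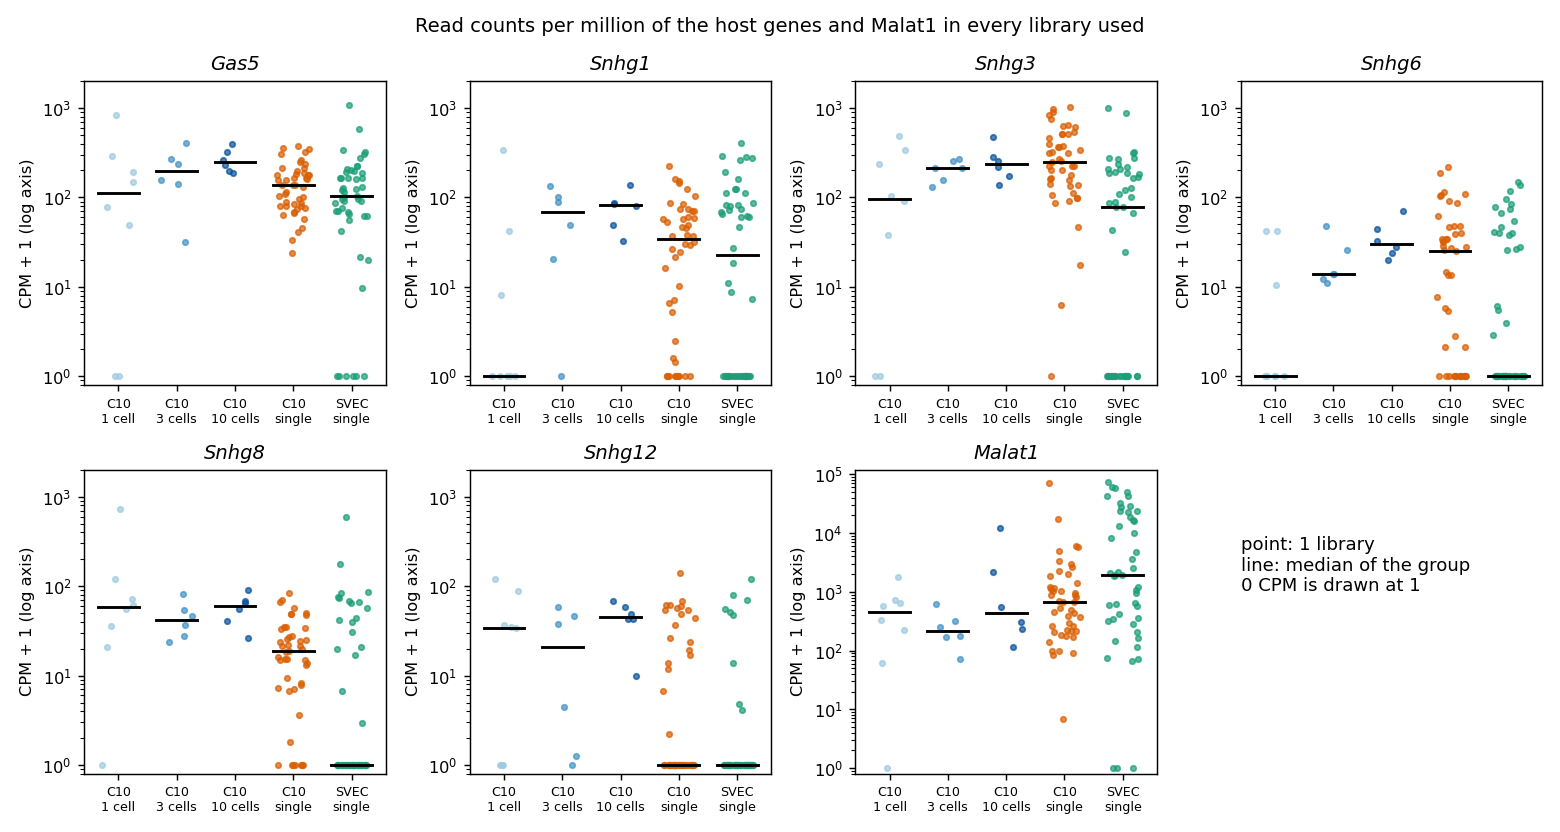
CPM + 1 on a log axis for each host gene and Malat1 in every library used, by group; each point is 1 library, the line is the group median and 0 CPM is drawn at 1. Snhg3 sits at a median of 251 CPM in C10 and 76.8 CPM in SVEC single cells, while Gas5 has medians of 136 and 102 CPM.

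Levels of different genes were compared per kilobase of the longest annotated spliced transcript. In C10 single cells the order of the mean was Snhg3 (571 ± 453 CPM per kb, SD), Malat1 (431 ± 1523), Gas5 (224 ± 134), Snhg1 (64.1 ± 71.6), Snhg6 (43.7 ± 60.0), Snhg8 (41.3 ± 38.3) and Snhg12 (11.1 ± 18.7). Neighbours in this order mostly lay within each other's spread. Snhg3 was above Malat1 in 37 of 46 libraries and Gas5 above Snhg1 in 41 of 46, whereas Malat1, placed second by its mean, was above Gas5 in 14 of 46. Snhg6 was above Snhg8 in 21 of 46 libraries and tied with it in 2. In SVEC single cells Malat1 came first (1792 ± 2707 CPM per kb) and was above Snhg3 in 37 of 48 libraries, and Snhg3 (222 ± 343) and Gas5 (220 ± 265) could not be ranked, with Snhg3 above Gas5 in 23 of 48 libraries and tied in 3. Over the union of all exons, which includes retained introns, Malat1 moved ahead of Snhg3 in the C10 mean (431 against 337 CPM per kb) and Gas5 stood at 39.6 CPM per kb, so the order depends on which exons are counted as length.

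Shares of libraries with a count depend on depth, so every library was also thinned at random to 100000 counts, which left out 1 C10 and 6 SVEC libraries that held fewer. After thinning, Snhg3 was counted in 43 of 45 C10 and 26 of 42 SVEC libraries, and Gas5 in 45 of 45 and 38 of 42. Snhg8 was counted in 33 of 45 and 17 of 42, Snhg6 in 26 of 45 and 15 of 42, Snhg12 in 18 of 45 and 9 of 42, and Snhg1 in 33 of 45 and 26 of 42. Malat1 was counted in 44 of 45 and 39 of 42. Each member was thus counted in a larger share of C10 than of SVEC libraries before and after thinning, as a description with no test. As deposited, C10 libraries also held more genes of any kind (median 6103 detected, against 4404 in SVEC). The share of all genes with the same pattern is not given, so it is not a result about the members. As deposited, all 6 members were present together in 11 of 46 C10 and 1 of 48 SVEC libraries, and 2 SVEC libraries held none of them.

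**Figure D2:**
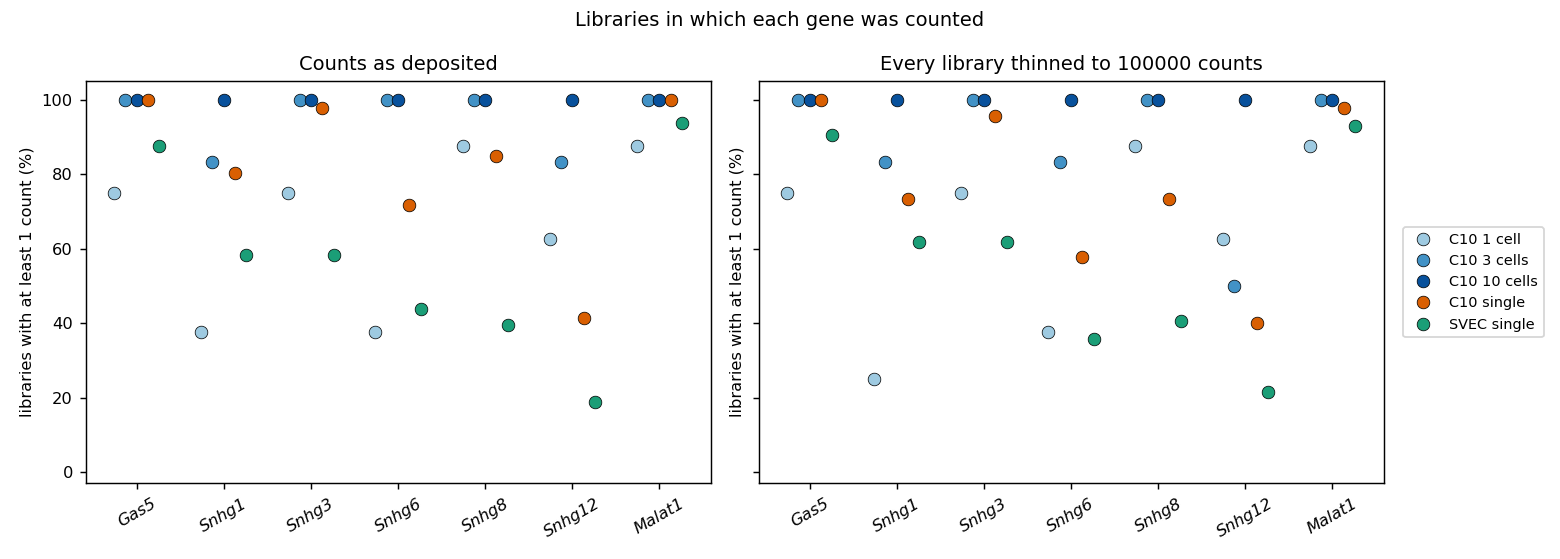
Percentage of libraries with at least 1 count of each gene in the 5 groups, with the counts as deposited (left) and with every library thinned to 100000 counts (right). Snhg3 was counted in 97.8% of C10 and 58.3% of SVEC single-cell libraries as deposited, and in 95.6% and 61.9% after thinning.

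C10 and SVEC single cells were then compared to ask which host genes differ between the lines. Snhg3 was higher in C10, by 1.62 on the log2 scale (SE 0.48), with a ratio of mean CPM of 2.57 (edgeR quasi-likelihood test, Benjamini-Hochberg adjusted p = 0.00856 over 9303 genes). It was the only one of the 6 past the threshold of 0.05, 1 of 6 against 18.9% of all genes tested called in either direction and 14.4% called higher in C10. The members' count is near that background and is not a result about the set. Their median log2 fold change was 0.63, and that of all genes tested was 0.35. Scaled by library totals alone, in place of TMM, the medians were 0.29 and 0.01, and the share of all calls that were higher in C10 went from 1337 of 1754 to 932 of 1588, so fold changes near 0 take their sign from the scaling.

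The Snhg3 call held in 7 of 8 alternative fits, with log2 values from 1.34 to 3.43. Thinned to 100000 counts, the difference was 1.40 (edgeR adjusted p = 0.0152), and limma on log2(CPM + 1) gave 3.43 (adjusted p = 3.47e-06). The call was lost when each library's number of detected genes was a term of the model (1.22, edgeR adjusted p = 0.132). C10 libraries had more counts and more members detected (median 5 of 6, against 3 in SVEC), and what remains once depth and detection are both set equal was not tested.

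The other 5 members did not pass. Gas5 had a log2 fold change of 0.48 (95% interval -0.17 to 1.14; edgeR adjusted p = 0.358). Snhg1 gave -0.24 (-1.42 to 0.94; adjusted p = 0.853) and Snhg6 gave 0.77 (-0.56 to 2.10; adjusted p = 0.497). Snhg12 gave 1.16 (-0.43 to 2.74; adjusted p = 0.363). Snhg8 gave 0.13 (-1.14 to 1.40; adjusted p = 0.931), with the opposite sign to its means of 21.8 CPM in C10 and 32.1 CPM in SVEC. Without SVEC replicate 9, the library with 3 counts, the SVEC mean was 20.3 CPM. In C10 against SVEC limma called Snhg8 higher in C10 (1.50, adjusted p = 0.0184). The intervals of Snhg6 and Snhg12 still include differences as large as that of Snhg3, and differences between members in this contrast were not tested.

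Malat1 was lower in C10 single cells, by -1.72 on the log2 scale (SE 0.57; edgeR adjusted p = 0.0222), against 4.48% of all genes called lower. The direction held in all 8 alternatives, but the call held in 5 of them. It was lost, among others, in limma (-1.31, adjusted p = 0.112) and among libraries with at least 100000 counts (-1.48, edgeR adjusted p = 0.0650). With detected genes as a term, it was -3.13. Neat1, another nuclear noncoding RNA and the scaffold of paraspeckles, gave -0.98 and did not pass (edgeR adjusted p = 0.453). Exons of Malat1 share 453 bases with Gm37376 on the opposite strand.

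**Figure D3:**
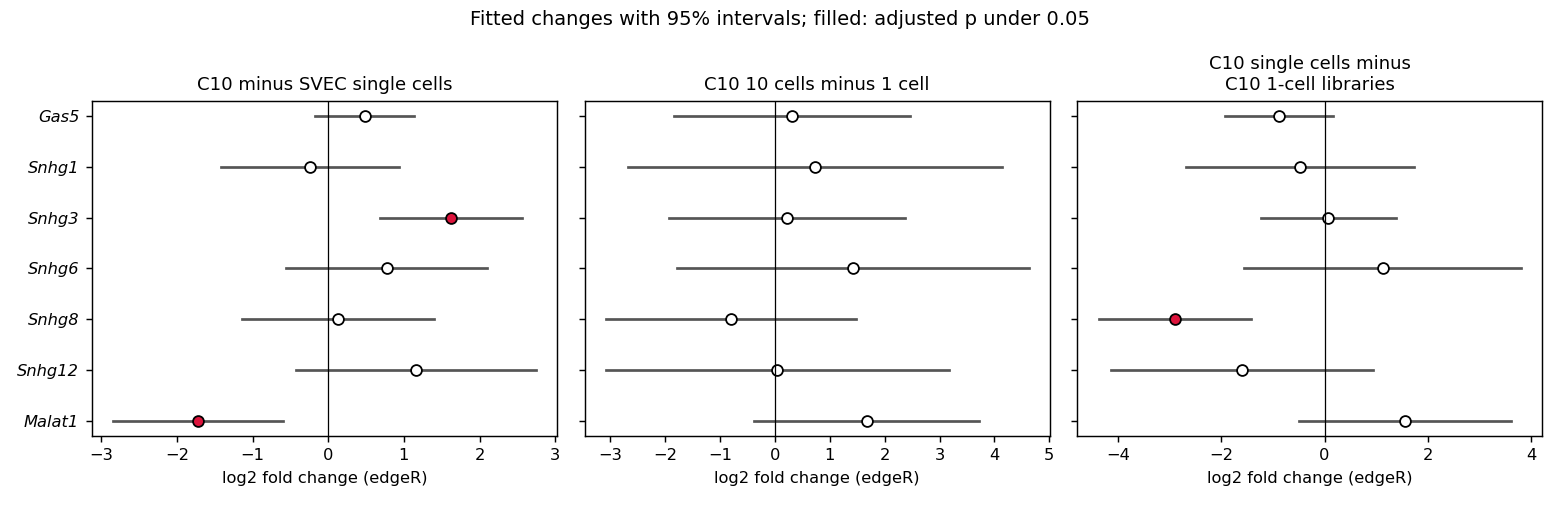
Fitted log2 fold changes from edgeR with 95% intervals for the host genes and Malat1 in 3 comparisons; filled points passed an adjusted p of 0.05. Snhg3 (1.62) and Malat1 (-1.72) passed between the lines, none passed between 10 cells and 1 cell, and Snhg8 (-2.90) passed between the C10 series.

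Summed over the 6 members, host RNA made up 116, 531 and 1566 CPM in the lowest, median and highest C10 single-cell library and 0, 305 and 1616 CPM in SVEC. Gas5 and Snhg3 made up 80.0% of the summed mean in C10 and 67.5% in SVEC. Malat1 exceeded the sum in 23 of 46 C10 and in 37 of 48 SVEC libraries. The sum varied less between libraries than Malat1 did, with a coefficient of variation of 0.557 against 3.54 in C10 and 0.777 against 1.51 in SVEC, although a sum over genes varies less than a single gene by its construction. Without C10 replicate 1, which held 71160 CPM, the coefficient of Malat1 in C10 was 1.87.

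**Figure D4:**
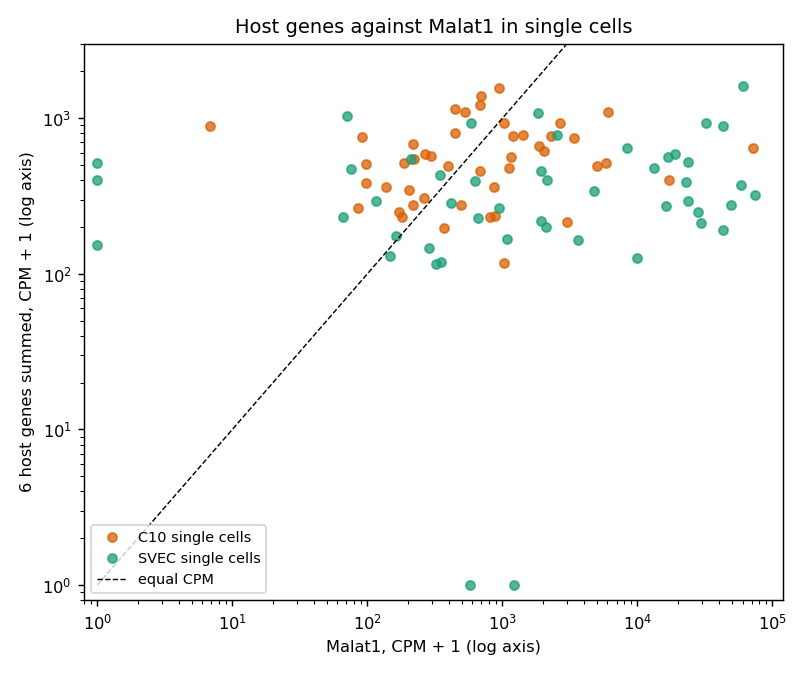
Summed CPM of the 6 host genes against Malat1 CPM, both plus 1 on log axes, in 46 C10 and 48 SVEC single-cell libraries; the dashed line marks equal CPM. Malat1 lies to the right of the line, above the host sum, in 23 C10 and 37 SVEC libraries.

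The members moved only weakly together from cell to cell. Over the 15 pairs of members, Spearman's rho of CPM had a median of 0.14 (range -0.09 to 0.35) across 46 C10 libraries and 0.16 (-0.09 to 0.38) across 48 SVEC libraries. The same coefficient of a member with Malat1 had medians of 0.13 and 0.07. These are descriptions over libraries that share depth differences and many values of 0.

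Genes whose level was most like the host sum were ranked by Spearman's rho among genes detected in at least 90% of a line's libraries. In C10 the first 5 of 1819 genes included Rpl35 (0.715), Rps26 (0.687), Rpl23 (0.671) and Herpud2 (0.632), of which Rpl35, Rps26 and Rpl23 encode ribosomal proteins. Of the 61 genes with rho over 0.5 in C10, 28 were among the 72 ribosomal protein genes compared, whose median rho was 0.485, while the median of all genes was 0.061. The host sum fell with library depth in C10, with a rho against total counts of -0.290. Rpl35 (-0.300), Rps26 (-0.316), Rpl23 (-0.426) and Herpud2 (-0.277) fell with depth too. The part of depth in the likeness was not tested. In SVEC the first 5 of 448 genes included Ncl (0.402), which encodes nucleolin, Tlk1 (0.364), Rrm2b (0.323) and Mdh2 (0.323), no gene passed 0.5, and the 54 ribosomal protein genes compared had a median of 0.082.

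Related gene lists were set beside the members for C10 against SVEC single cells. Of 15 further noncoding snoRNA hosts, 12 were tested, and by edgeR 5 were higher in C10 and 0 lower, where 14.4% of all genes tested were higher. limma called 8 of the 12 higher, and 2895 of all 9303 genes. The edgeR calls were led by Snhg18 (log2 fold change 2.88; 212 ± 137 CPM in C10 and 39.1 ± 83.4 in SVEC, SD; edgeR adjusted p = 2.26e-05) and Dancr (2.53; 41.4 ± 58.4 and 11.2 ± 66.5 CPM; adjusted p = 0.0217), and the list's median was 1.31. Snhg5, Snhg17 and Snhg20 had fitted values below 0 and did not pass.

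Of 30 protein-coding hosts, 29 were tested, and by edgeR 21 were higher in C10 and 0 lower, with a median of 1.03, again against 14.4% of all genes. limma called 23 of the 29 higher. The largest were Rps12 (2.20; edgeR adjusted p = 2.35e-10), a protein of the small ribosomal subunit, and Rack1 (2.09; adjusted p = 1.23e-08), a scaffold bound to the ribosome. Most of this list are genes of ribosomal proteins and translation factors. Scaled by library totals, its median was 0.62 and that of the noncoding hosts 1.08, both above the 0.01 of all genes.

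For the machinery that acts on these transcripts limma called more genes than edgeR, as it did over all genes. Of 17 genes for snoRNP proteins and their assembly, which bind snoRNAs and include Nop56, Nop58 and Dkc1 from the host list, only Nhp2 passed in edgeR (1.43; adjusted p = 0.00140), 1 of 17 against 14.4% of all genes, with a list median of 0.33, while limma called 6 higher. Of 8 nonsense-mediated decay factors tested, only Smg5 passed in edgeR (3.18; adjusted p = 0.00111), at 13.9 ± 28.1 CPM (SD) in C10 and 1.51 ± 3.93 in SVEC, with a list median of 0.13, while limma called 3 higher. Both medians lay at or below that of all genes. The limma counts, 6 of 17 and 3 of 8, lay near the share of all genes it called higher, given above beside the noncoding hosts. The edgeR counts lay near or below its 14.4%, so neither tool gave a result about these lists.

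**Figure D5:**
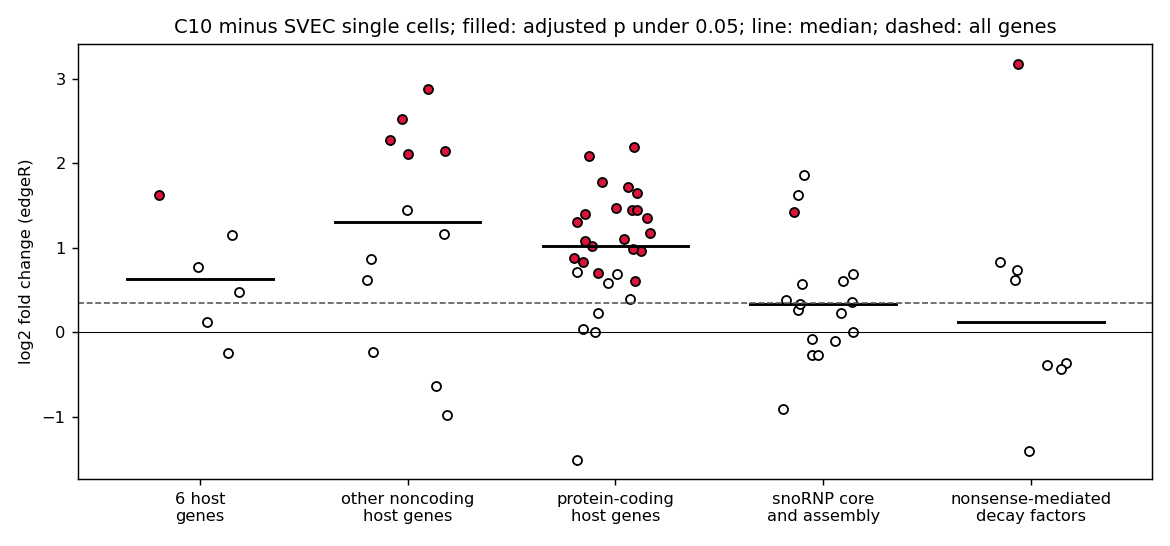
edgeR log2 fold changes of C10 against SVEC single cells for each tested gene of 5 lists; filled points passed an adjusted p of 0.05, lines are list medians and the dashed line is the median of all genes (0.35). The 29 protein-coding hosts have a median of 1.03 and the 12 further noncoding hosts 1.31, against 0.63 for the 6 members.

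The input series asked how the reading of host genes changes with the number of C10 cells in a library. With 10 cells every member was counted in 6 of 6 libraries, at 267 ± 81.7 CPM (SD, n = 6) for Gas5, 257 ± 119 for Snhg3, 77.4 ± 36.9 for Snhg1, 56.5 ± 22.2 for Snhg8, 44.2 ± 20.0 for Snhg12 and 35.5 ± 19.0 for Snhg6. With 3 cells, Gas5 (205 ± 128 CPM, n = 6), Snhg3 (205 ± 53.3), Snhg8 (43.9 ± 21.1) and Snhg6 (19.7 ± 14.2) were counted in 6 of 6 libraries, and Snhg1 (64.7 ± 51.0) and Snhg12 (23.8 ± 25.6) in 5 of 6. With 1 cell, Snhg8 was counted in 7 of 8 libraries (136 ± 243 CPM, n = 8), Gas5 (200 ± 278) and Snhg3 (161 ± 178) in 6 of 8, Snhg12 (38.7 ± 43.8) in 5 of 8, and Snhg1 (48.6 ± 119) and Snhg6 (11.4 ± 18.5) in 3 of 8. Thinning to 100000 counts left all 6 members detected in 6 of 6 libraries with 10 cells. CPM cannot tell a change in the number of cells that hold a transcript from a change in its amount per cell.

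The sum of the 6 members narrowed around its centre as cells were added. It ran from 77.7 to 1797 CPM with 1 cell (median 497), from 305 to 748 with 3 cells (median 618) and from 517 to 932 with 10 cells (median 762), and its coefficient of variation was 0.880, 0.286 and 0.227, a comparison with no test. Without replicate 10, the highest 1-cell library, the 1-cell coefficient was 0.505. Malat1 did not narrow, with coefficients of 1.06, 0.724 and 1.83. Among the 10-cell libraries Malat1 ran from 116 to 12026 CPM, and the top value was replicate 9.

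No member passed the edgeR test in the input series, and none had an unadjusted p under 0.05 in it. Between 10 cells and 1 cell 0 of 6 were called, against 10.7% of 13645 genes (1456 by edgeR), and between 3 cells and 1 cell 0 of 6, against 6.35%. These comparisons share the 1-cell libraries. Between 10 and 3 cells 0 of 6 were called, against 0.0% of all genes, where 1346 genes had an unadjusted p under 0.05 and DESeq2 called 254 genes and limma 35, none of them a member. Fitted values for 10 cells against 1 cell ran from -0.80 for Snhg8 to 1.42 for Snhg6. The intervals were wide, from -1.83 to 2.46 for Gas5 and from -1.78 to 4.62 for Snhg6, so changes of more than 2-fold in either direction lie within them. In limma Snhg6 was called higher with 10 cells than with 1 (3.28, adjusted p = 0.0403). With counts in only 3 of 8 1-cell libraries, Snhg6 passed the detection filter only through the groups of 3 and 10 cells. The limma p-value does not show a change in amount per cell, and the share of all genes limma called is not given.

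The counts over all genes behind these shares rested on single libraries. Without replicate 1 of the 1-cell libraries edgeR called 336 genes for 10 cells against 1 cell and 32 for 3 cells against 1 cell, and without replicate 10 it called 2769 and 2035. The members stayed at 0 called in each case. Malat1 between 10 and 3 cells had a log2 fold change of 3.03 (edgeR adjusted p = 0.282), which was 1.10 without replicate 9 of the 10-cell libraries.

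C10 single cells were last compared with the C10 1-cell input libraries, which are the same line and the same number of cells. The labels do not say whether these series were made apart, and depth differed as well. Median counts were 1.88e+06 in the single cells used and 1.02e+07 in the 1-cell libraries. The comparison describes how far a host gene differs between these series, with depth included. Snhg8 was lower in the single-cell series, by -2.90 on the log2 scale (SE 0.75; edgeR adjusted p = 0.00403), 1 of 6 members against 15.1% of 12303 genes called in either direction and 11.4% called lower. Its lowest, median and highest values were 0, 17.7 and 83.3 CPM in 46 single-cell libraries and 0, 57.5 and 731 CPM in the 8 1-cell libraries, and 3 of 46 single cells lay above the 1-cell median. The call rested on several 1-cell libraries. Without replicate 1, where Snhg8 was the only member detected, the difference was -1.52 (adjusted p = 0.286), and it was also lost without replicate 5 (0.0606), 10 (0.0546), 13 (0.100) or 14 (0.131), by edgeR adjusted p. It was lost as well with counts thinned to 100000 (-1.82, edgeR adjusted p = 0.135) and in limma (-1.81, adjusted p = 0.143).

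The remaining members did not pass between the C10 series. Snhg3 gave 0.08 (95% interval -1.23 to 1.38; edgeR adjusted p = 0.964) and Gas5 gave -0.88 (-1.93 to 0.17; adjusted p = 0.302), which DESeq2 called at -1.22 (adjusted p = 0.0497). Snhg1, Snhg6 and Snhg12 gave -0.47, 1.12 and -1.59, with edgeR adjusted p-values of 0.857, 0.670 and 0.476. The median of all genes in this comparison was -0.36. For Snhg3 limma gave 2.26 between the C10 series (adjusted p = 0.0677). The comparisons of C10 with SVEC and between the C10 series share the C10 single-cell libraries, and the difference between their fold changes was not tested. Malat1 gave 1.56 (edgeR adjusted p = 0.360), and with counts thinned to 100000 it was called higher in the single cells (3.01, adjusted p = 0.0459).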

How the data were processed

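The authors deposited 1 file per library with whole-number read counts per gene symbol, unnormalized, and 5 closing counters. Per the labels' protocols, cDNA came from a SMART-Seq v4 Plus kit, read as single reads of 150 bases. The submitters' processing notes name FastQC, STAR and HTSeq; versions, genome build, annotation and strand setting are not given in the sources used here. Reads in the counters, left out, were 28.1% not aligned, 4.71% in no feature, 3.98% ambiguous and 0.576% of low quality.

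Groups came from the labels. Libraries under 1000 counts (2 C10 single cells) were left out. Genes detected in at least 25% (single cells) or 50% (input series, 1 model of 3 groups) of the libraries of at least 1 group entered edgeR 4.0.16 (R 4.3.3; glmQLFTest, TMM), in 5 comparisons, and were called at a Benjamini-Hochberg p under 0.05; SE was taken from F, and intervals are approximate, from the SE. Alternatives were library totals, DESeq2 1.42.0, limma 3.58.1 on log2(CPM + 1), no filter, replicate block, detection-rate covariate, a depth minimum or thinning, and leaving out libraries. The fits were tested on simulated data. No 2 libraries were alike within sampling noise (lowest chi-square per degree of freedom 3.23). The 6 members, and the gene lists, were chosen with earlier results of these data known. From each list, the 2 called genes that changed most in each direction were named (if none, the 2 with the highest mean CPM); other names were chosen after their values were seen. Some genes that met a naming rule are not reported here.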

Additional observations from a re-analysis of the deposited data

Results flagged for a closer look

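Of 21 groups of 4 to 10 libraries examined (6 hosts and Malat1 in 3 input groups), 5 had a library whose gap to its nearest neighbour was too large for the group's range by Dixon's criterion, where chance gives about 1 in 20 groups, or 1.05. Replicate 10 of the C10 1-cell libraries was the highest for Gas5, at 843 CPM (10076 counts, next library 291 CPM), and for Snhg1, at 340 CPM (4062 counts, next library 41.6 CPM). The same library had the most genes detected of its group, 11764, and the highest Snhg12, 120 CPM. Replicate 1 of the 1-cell libraries was the highest for Snhg8, at 731 CPM, which was 315 of its 430798 counts, while the other 5 hosts and Malat1 had 0 counts there. Malat1 stood apart at 1804 CPM in replicate 14 of the 1-cell libraries (next library 712 CPM) and at 12026 CPM in replicate 9 of the 10-cell libraries (next library 2167 CPM).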

How the results depend on the processing

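Counts of genes called are given first. For C10 against SVEC single cells they were 3223 in limma, 5437 with no filter and 3101 with a replicate block, against 1754; the members called were 2 in limma, 3 with the block and 0 with the detection-rate covariate, against 1. For 10 cells against 1 cell, genes called were 48 with no filter and 0 with the block or the covariate, against 1456, and 1 member was called in limma. For 3 cells against 1 cell they were 121 in limma, 65 with no filter and 0 with the block or the covariate, against 866. For 10 against 3 cells they were 254 in DESeq2, 35 in limma and 2 with the covariate, against 0. For C10 single cells against 1-cell libraries they were 1156 in limma, 4365 with no filter, 2 with the block and 882 after thinning, against 1852, and members called were 2 in DESeq2 and 0 in limma, with the block or after thinning, against 1. Leaving out single libraries gave 336 to 2769 genes for 10 cells against 1 cell, 32 to 2035 for 3 cells against 1 cell, 0 to 0 for 10 against 3 cells and, as a choice made after seeing the data, 1314 to 1762 genes and 0 to 1 members for C10 single cells against 1-cell libraries.

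Replicate numbers did not pair the libraries. Same-numbered libraries had correlations of their deviations of at most 0.16, and 1 of 46 pairs of single cells was above 0.1. With the block, Malat1 between the lines was -1.0 (edgeR adjusted p = 0.207), while Snhg8 (2.85) and Snhg12 (3.38) were called. Under the block the sign turned for Snhg1 between the lines (0.60), for Gas5 (-0.010) and Malat1 (0.23) with 3 cells against 1 cell, and for Gas5 (0.069) and Snhg1 (5.21) between the C10 series.

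Other turns of sign were all of values that had not passed. Between the lines they were Snhg8 by library totals (-0.33) and Snhg1 in limma (0.45) and at 100000 counts or more (0.034). In DESeq2 they were Gas5 (-0.40), Snhg3 (-0.74) and Snhg12 (-0.73) for 10 cells against 1 cell, Gas5 (-0.25) and Snhg3 (-0.56) for 3 cells against 1 cell, Gas5 (-0.15), Snhg1 (-0.20), Snhg3 (-0.18) and Snhg8 (-0.15) for 10 against 3 cells, and Snhg3 (-0.60) between the C10 series. In limma they were Snhg8 (0.26) for 10 cells against 1 cell, Malat1 (0.16) for 3 cells against 1 cell, and Gas5 (1.38) and Snhg1 (2.00) between the C10 series. With the detection-rate covariate they were Gas5 (-2.77), Snhg1 (-2.24), Snhg3 (-0.41), Snhg6 (-1.08), Snhg8 (0.31), Snhg12 (-3.69) and Malat1 (-0.29) for 10 cells against 1 cell, Gas5 (-1.06) and Snhg3 (-0.29) for 3 cells against 1 cell, Gas5 (-1.71), Snhg1 (-2.39), Snhg3 (-0.11), Snhg6 (-1.10) and Snhg12 (-0.87) for 10 against 3 cells, and Gas5 (0.0020) and Snhg1 (2.73) between the C10 series. Leaving out single libraries gave ranges across 0 for Snhg12 (-0.15 to 0.62) for 10 cells against 1 cell, Gas5 (-0.14 to 1.01) and Snhg3 (-0.18 to 0.81) for 3 cells against 1 cell, Snhg1 (-0.13 to 0.47) and Snhg3 (-0.12 to 0.32) for 10 against 3 cells, and Gas5 (-0.93 to 0.068), Snhg1 (-0.66 to 2.43) and Snhg3 (-0.084 to 1.23) between the C10 series. The cause was not tested in any of these. The directions of Snhg3 and Malat1 between the lines, and of Snhg8 between the C10 series, held under every alternative run. Depth limits the sparse members most: a floor of 3 counts is 6.90 CPM in the median SVEC library, where the mean of Snhg12 was 9.12 CPM. Leaving out the highest library of a group, where the text gives such a mean or coefficient of variation, was chosen after seeing the data.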

Other observations

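Among the further noncoding hosts, 2 of 14 tested were called by edgeR for 10 cells against 1 cell, where 10.7% of all genes were called. Snhg7 was at 0 counts in all 8 1-cell libraries and was counted in 6 of 6 libraries of 10 cells, at 13.1 ± 12.7 CPM (SD; edgeR adjusted p = 0.0234, limma adjusted p = 0.0277). With no 1-cell counts, Snhg7 passed the detection filter only through groups that held it. Its p-values do not show a change in amount per cell. Snhg14 was at 5.64 ± 13.0 CPM (SD) with 10 cells and 0.0241 ± 0.0464 with 1 cell (edgeR adjusted p = 0.0256), but without replicate 10 of the 10-cell libraries its mean was 0.333 CPM, and limma did not call it (adjusted p = 0.149). Of the 10 nonsense-mediated decay factors edgeR called 1, near the 10.7% of all genes. It was Upf1, the helicase at the centre of the pathway. Upf1 was at 2.57 ± 3.29 CPM (SD) with 10 cells and 0.0105 ± 0.0296 CPM with 1 cell (edgeR adjusted p = 0.0230). With 10 cells 4 of 6 libraries held Upf1, and it passed the detection filter only through that group. The p-value of Upf1 thus does not show a change in amount per cell either. In edgeR no protein-coding host and no snoRNP gene passed in that comparison. limma called 4 of the 10 decay factors and 1 snoRNP gene, Znhit3 (adjusted p = 0.0325). The share of all genes that limma called here is not given, so these counts are not a result about the lists.

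Between the C10 series the further hosts gave calls that differed by tool. edgeR called Snhg4 lower in the single cells (65.5 ± 92.6 CPM, SD) than in the 1-cell libraries (907 ± 2359; adjusted p = 0.00240), but without replicate 1 of the 1-cell libraries that mean was 73.8 CPM, and limma did not call it (adjusted p = 0.444). For the 29 protein-coding hosts tested edgeR called 1 higher and 2 lower, against 15.1% of all genes called, while limma called 15 higher and 1 lower. The limma count over all genes in this comparison is given above without direction, so its 15 higher calls are not a result about the list. Rpl10 was higher in the single cells (1432 ± 546 against 407 ± 490 CPM, SD) and Rps2 lower (793 ± 252 against 1462 ± 760) by edgeR (adjusted p = 0.0456 and 4.00e-08) and by limma (2.74e-06 and 0.00713). Eif4a1, a translation helicase gene, was the other lower call by edgeR (142 ± 82.6 against 389 ± 335 CPM, SD; adjusted p = 0.000521), and limma did not call it (adjusted p = 0.919). edgeR also called Snhg7 higher in the single cells (16.7 ± 32.1 CPM, SD; adjusted p = 0.00880), where the 1-cell libraries held no counts, and limma did not (adjusted p = 0.299). Here too Snhg7 passed the detection filter only through the group that held it.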
